A study of Mus musculus with 10 samples.

Results

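Long intergenic noncoding RNAs (lincRNAs) are transcripts of genes that lie between protein-coding genes and give no annotated protein. They were examined in sorted plasma cells that differed in the antibody isotype they expressed. The members were chosen by annotation and selected on their measured level: every gene whose identifier has the gene type lincRNA in the GENCODE M21 annotation and whose mean over all 10 libraries reached 1 FPKM was taken, where FPKM counts fragments scaled by transcript length and library size. This gave 88 genes of 47719 in the files. The annotation types 3543 of the listed genes as lincRNA, of which 2407 were listed at 0 in every library and 1136 above 0 in at least 1. The selection used the level over all libraries and not the difference between the groups, but a gene seen in a single group could enter only through that group, and such genes are given apart below. The 3 members just above the limit were Gm23925 at 1.055, Gm13166 at 1.04 and 4930562F07Rik at 1.005 FPKM, and the 3 lincRNA genes just below it were D930016D06Rik at 0.966, Gm11008 at 0.953 and Lncpint at 0.9413 FPKM.

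The 2 groups were IgM and IgG1 plasma cells from mouse spleen, with 5 libraries each. In both groups the cells descended from transferred donor B cells that carried S1PR2-CreERT2, a Cre recombinase which tamoxifen activates in cells expressing the germinal centre receptor S1PR2, the Ai14 reporter, which makes tdTomato after Cre has acted, and B1-8 germ, a heavy chain variable region that binds the hapten NP in its germline form. The recipients were wild-type mice with their own immune system. Immunization was with NP-CGG in alum (day 0), Cre was induced with tamoxifen (days 5 and 6), and tdTomato-positive donor plasma cells of either isotype were sorted on day 10. Whether replicates are separate animals is not in the labels. The p-values therefore reflect the spread between these libraries, part of which may be technical.

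Many lincRNAs stay in the nucleus, where they hold proteins in granules, shape the chromatin around their own gene or serve as precursors of small RNAs cut from their introns. Malat1 gathers in nuclear speckles with splicing factors, and Neat1 is the scaffold of paraspeckles. In lymphocytes, noncoding genes beside regulators of survival and growth, such as Morrbid beside Bcl2l11 and Pvt1 beside Myc, are studied for effects on that neighbour.

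The transcripts of Malat1 and Neat1 were the 2 lincRNAs with the largest differences between the groups on the scale of log2 of FPKM plus 1, and their 3′ ends share an uncommon form. The mature end of Malat1 and that of the long form of Neat1 are not made by adding a poly(A) tail. RNase P cuts each precursor just before a tRNA-like small RNA, and a pair of U-rich stretches folds back on an A-rich end to form a triple helix that protects the RNA. The last 120 bases before the cut are printed below, 5′ to 3′ on the minus strand of GRCm38, from the GENCODE M21 transcripts. Capitals mark the U-rich motif TTTTNCTTTT and the A-rich end AAAGCAAAA. The U-rich motif occurs at bases 35 and 75 of the Malat1 stretch, but at base 68 alone of the Neat1 stretch. The other U-rich stretch of the pair is thus not marked in Neat1. The Malat1 stretch is chr19:5795982-5796101 and the Neat1 stretch is chr19:5824708-5824827.
Malat1: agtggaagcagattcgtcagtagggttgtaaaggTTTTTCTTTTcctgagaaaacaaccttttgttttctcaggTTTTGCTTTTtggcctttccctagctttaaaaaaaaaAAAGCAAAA
Neat1: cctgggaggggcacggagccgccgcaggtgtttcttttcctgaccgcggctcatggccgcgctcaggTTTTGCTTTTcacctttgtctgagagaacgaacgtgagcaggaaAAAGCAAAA

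The Malat1 stretch ends at the base before the 58-base Mascrna of RefSeq (chr19:5795924-5795981), and the Neat1 stretch at the base before the 56-base small RNA Gm27702 (chr19:5824652-5824707). Gm27702 was listed at 0 in every library. On the transcript strand, TTTTNCTTTT occurred in the last 120 bases of the longest transcript of 349 of 51130 annotated genes (0.683%) and AAAGCAAAA in 186 (0.364%). Both occurred in 1 gene, Neat1 (0.00196%). Malat1 is not counted there because its longest annotated transcript runs on past the cut. A match of letters is a description of the sequence only.

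Annotated microRNAs lie wholly within 4 of the members on the same strand, and their mature sequences show what these hosts carry. They are RefSeq entries on GRCm38.p6, printed 5′ to 3′ with the seed, bases 2 to 8, in capitals.
miR-374b-5p in Ftx: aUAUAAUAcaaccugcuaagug
miR-374b-3p in Ftx: gGUUGUAUuaucauuguccgag
miR-421-5p in Ftx: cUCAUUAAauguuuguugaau
miR-6516-5p in Snhg20: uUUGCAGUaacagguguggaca
miR-6516-3p in Snhg20: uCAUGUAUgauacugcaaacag
miR-1839-5p in 2900076A07Rik: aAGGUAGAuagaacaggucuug
miR-142a-5p in Mir142hg: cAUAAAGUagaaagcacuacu
miR-142a-3p in Mir142hg: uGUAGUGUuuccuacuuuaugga
No pair of these 8 shares a seed. Library preparation started from long polyadenylated RNA, so the values below describe the host transcripts and not the microRNAs.

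Most lincRNA genes that differed were higher in IgM cells. Of the 88 members, 35 were higher in IgM libraries, 3 were lower and 50 did not pass (limma on log2 of FPKM plus 1, adjusted p under 0.05 over 9900 genes). Among all genes tested, 20.2% were higher and 18.1% lower, which is 38.3% called in either direction. Of the members, 39.8% were higher and 3.41% lower. The median log2 difference, IgM minus IgG1, was 0.54 over the members and 0.05 over all genes tested, and 66 members had a positive and 22 a negative value. For 25 members the IgM libraries all lay above the IgG1 libraries, and for 0 members all below. Groups that did not overlap made up 26.3% of all genes tested, and those with IgM above 13.3%.

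More members were higher than lower in each range of expression. Of the 27 members between 1 and 2 FPKM, 8 were higher and 0 lower, beside 15.2% higher and 2.41% lower among all genes in that range. Between 2 and 5 FPKM, 12 of 32 were higher and 0 lower, beside 18.9% and 5.33% of all genes. At 5 FPKM or more, 15 of 29 members were higher and 3 lower, beside 21.4% and 24.2% of all genes. The 3 lower members all belonged to the upper range, where all genes were about evenly split.

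**Figure D1:**
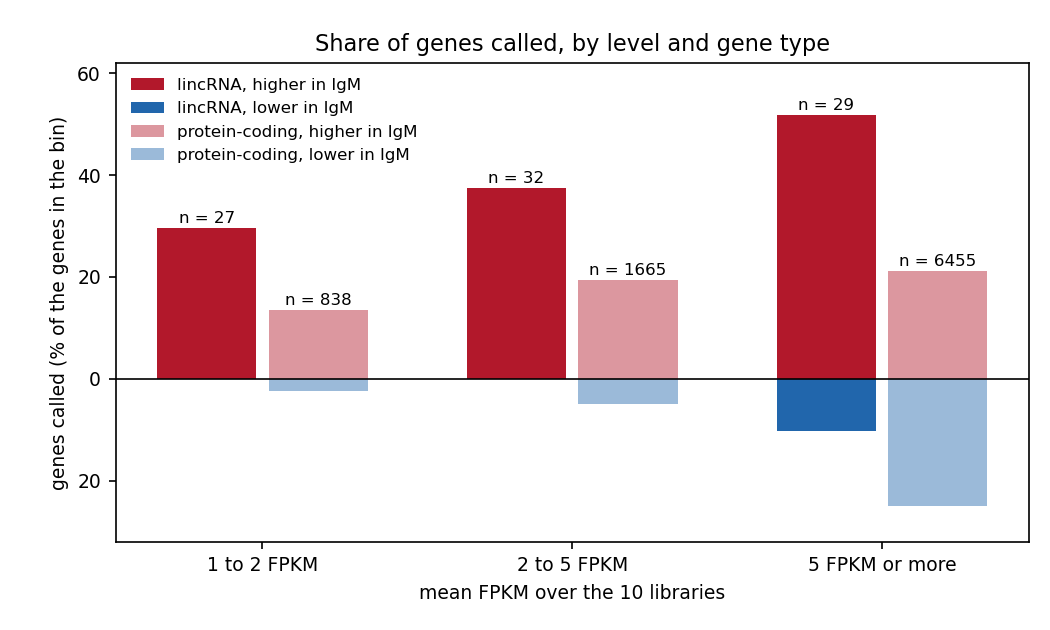
Share of lincRNA genes and of protein-coding genes that were higher (upward bars) or lower (downward bars) in IgM libraries, in % of the genes of each range of mean FPKM, with the number of genes above each pair. In each range the upward bar of the lincRNA genes is the taller one: 29.6%, 37.5% and 51.7% against 13.5%, 19.3% and 21.1% of protein-coding genes.

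A member whose level reached the limit in 1 group alone had to differ, so members were also counted by group means. In 67 members both group means were at least 1 FPKM, and of these 26 were higher and 3 lower in IgM libraries, with a median log2 difference of 0.38. All genes of that kind gave 19.6% higher and 18.9% lower. In 19 members the IgM mean alone reached 1 FPKM, of which 9 were higher, AI480526, Gm44734, Gm20939, Gm4349, Gm13166, Gm17300 and Gm37933 among them, and in 2 members, Dubr and 9330175E14Rik, the IgG1 mean alone did, of which 0 passed. Both were named after their values were seen. Dubr was at 0.657 ± 0.398 FPKM in the IgM and 1.84 ± 1.38 FPKM in the IgG1 libraries (SD, n = 5 per group, adjusted p = 0.0825). It passed as lower in IgM under quantile normalization (adjusted p = 0.0219), without IgG1 replicate 3 (adjusted p = 0.0408) and with length and GC trends removed (adjusted p = 0.0336).

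Transcript length and base composition moved with the calls over all genes. Genes with a GC content at or under the members' median were higher in IgM in 29.4% and lower in 11.2% of cases, and those above it in 14.1% and 22.7%. Of the members, 20 of 44 were higher at or under the median GC and 15 of 44 above it, and whether this split differs from that of all genes was not tested. By length, 16 of 44 members at or under the median exonic length and 19 of 44 above it were higher, beside 11.9% of all short genes and 21.9% of all long genes. After the trends with length and GC content were removed from each library, an alternative chosen after seeing the data, 27 members were higher and 6 lower, beside 13.4% and 21.8% of all genes. The part of length and composition in single calls was not tested further.

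Other kinds of noncoding genes also held more higher than lower genes. Of 81 genes typed processed_transcript 31 were higher and 7 lower, with a median of 0.36. That is 38.3% and 8.64%, beside 20.2% and 18.1% of all genes tested. Of 115 antisense genes 24 were higher and 3 lower, with a median of 0.32. Their share of higher genes, 20.9%, was near that of all genes, and their share of lower genes was 2.61%. Of 14 genes typed bidirectional_promoter_lncRNA 2 were higher and 1 lower. Whether these types differ from the lincRNA genes was not tested.

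**Figure D2:**
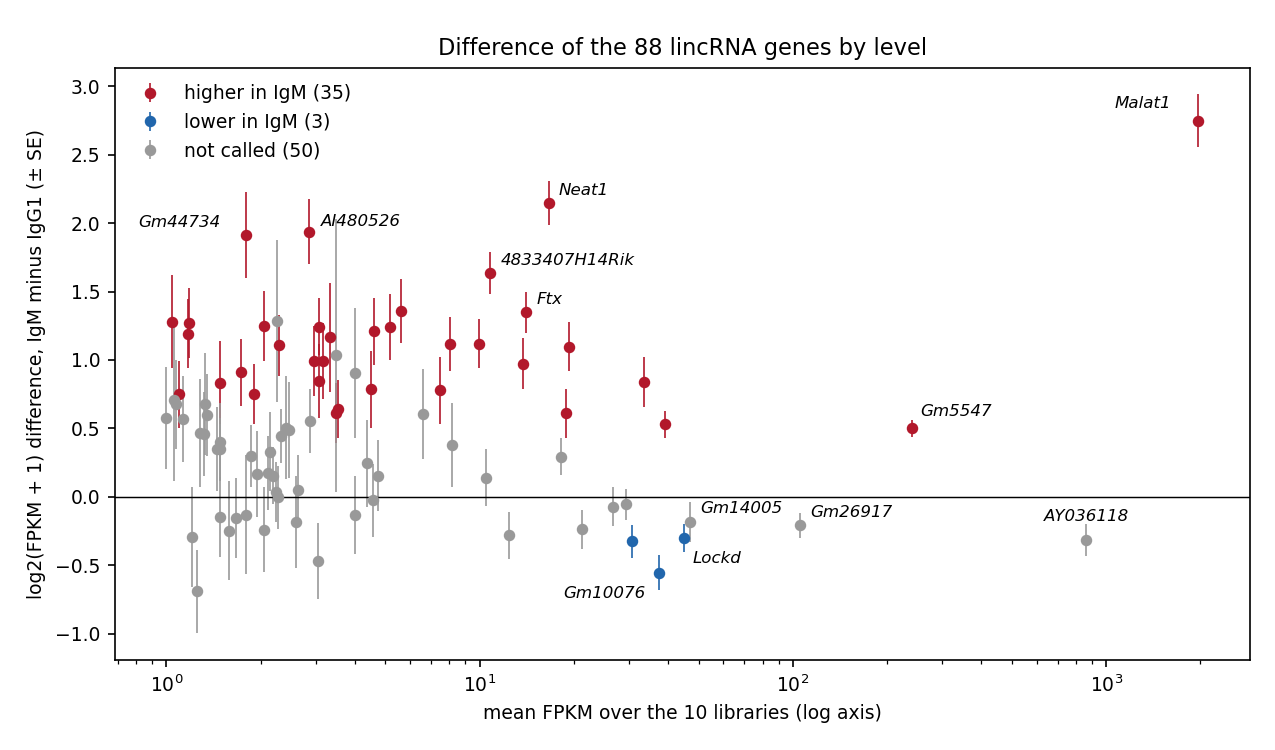
Log2 difference of each of the 88 lincRNA genes (points, with SE as vertical lines) against its mean FPKM on a log axis, coloured by call. Positive values are higher in IgM libraries; 35 genes were called above and 3 below 0, and Malat1 stands apart at the upper right with 2.75.

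Of 10 RNAs of the nuclear architectural list in the files, 5 were tested. All 5 were higher in IgM libraries, beside 20.2% of all genes tested. Firre among them reached the limit through the IgM libraries alone, and the call of 2900097C17Rik was not stable, as given below. Malat1 (chromosome 19, 5795690 to 5802672, minus strand, GRCm38) was at 3726, 3257, 2666, 3498 and 3905 FPKM in IgM replicates 1 to 5. In IgG1 replicates 1 to 5 it was at 490.4, 717, 581, 383 and 405 FPKM. The lowest IgM library thus held several times the Malat1 level of the highest IgG1 library, and the ratio of the means, 3410.3 to 515 FPKM, was 6.62 (log2 difference 2.75, SE 0.19, adjusted p = 7.64e-06). By mean FPKM it ranked 26 among all genes tested in IgM and 182 in IgG1 libraries.

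Neat1 (chromosome 19, 5824708 to 5845478, minus strand) starts its annotated span 22035 bases beyond the end of Malat1. It was at 27.4, 27.5, 28.1, 25.5 and 29.0 FPKM in the IgM and at 3.51, 7.40, 7.27, 4.96 and 4.91 FPKM in the IgG1 replicates. The IgM libraries were close to one another and all above the IgG1 libraries, by 4.90-fold in the means (log2 difference 2.15, SE 0.16, adjusted p = 1.67e-08). Neat1 is made in a short form with a poly(A) tail and a long form that ends in the triple helix, and the gene-level values do not separate them. The libraries came from poly(A) RNA, while the mature ends of Malat1 and of long Neat1 carry no poly(A) tail. How fully the libraries captured these 2 RNAs was not tested. Frmd8, the protein-coding gene with the start site nearest to Neat1, did not pass, at 6.97 against 9.65 FPKM (adjusted p = 0.0649, log2 difference -0.46).

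Norad, listed as 2900097C17Rik, is a mostly cytoplasmic RNA that binds Pumilio proteins and guards chromosome stability. It was at 4.51 ± 0.964 FPKM in the IgM and 2.56 ± 0.744 FPKM in the IgG1 libraries, with overlapping groups (SD, n = 5 per group, log2 difference 0.64, adjusted p = 0.0234). Its call ended without IgM replicate 1, IgM replicate 4 or IgG1 replicate 1 (adjusted p = 0.0549 to 0.0654), under quantile normalization (adjusted p = 0.117), without a filter (adjusted p = 0.0795) and with length and GC trends removed (adjusted p = 0.151). The list also holds RNAs of other gene types: Tug1, typed antisense, was at 38.4 ± 2.02 against 20.7 ± 3.13 FPKM (adjusted p = 5.91e-06, log2 difference 0.87). Firre, an X-linked RNA that anchors chromatin, was at 4.17 ± 1.10 against 0.443 ± 0.276 FPKM (log2 difference 1.84), so that its IgM level alone carried it over the limit. Meg3, Xist, Rmrp, Miat and Kcnq1ot1 of this list were under the limit and not tested, with Rmrp at 0.835 against 0.818 FPKM.

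**Figure D3:**
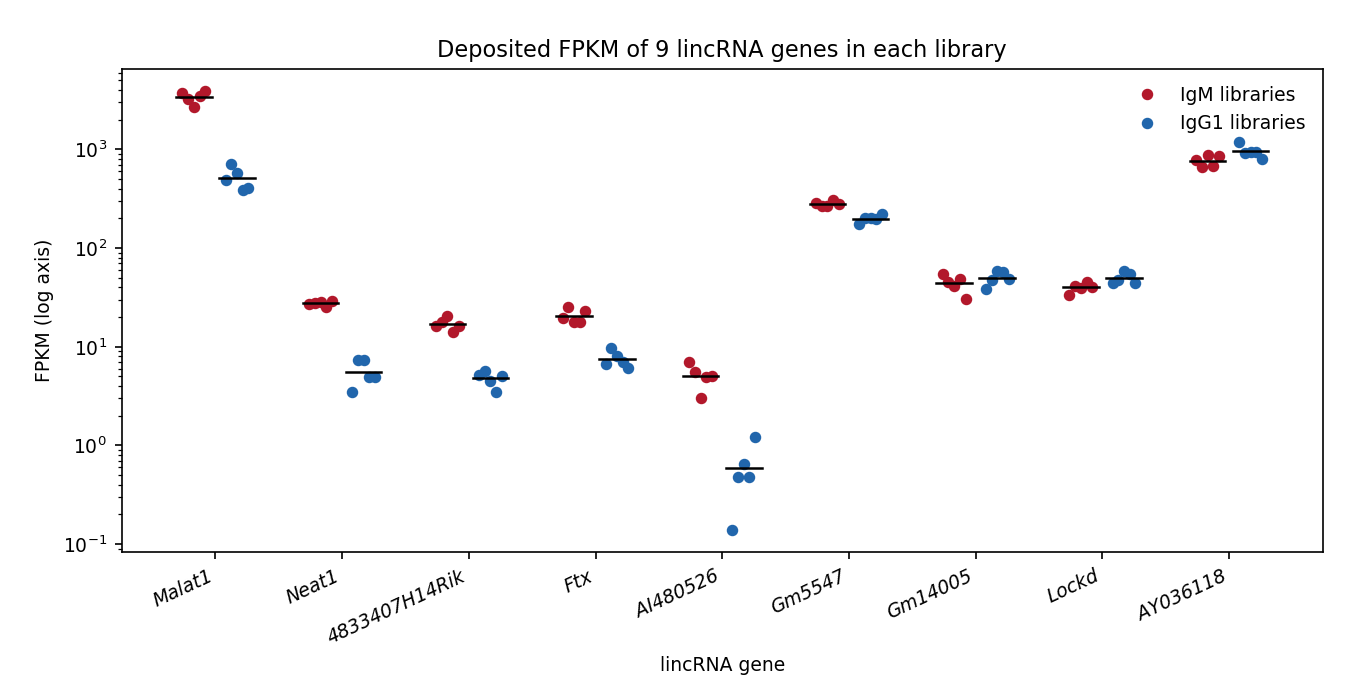
Deposited FPKM (log axis) of 9 lincRNA genes in each library, IgM in red and IgG1 in blue, with black lines at the group means. Malat1, Neat1, 4833407H14Rik, Ftx, AI480526 and Gm5547 have separate groups, and Gm14005, Lockd and AY036118 have overlapping ones.

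Malat1 alone made up most of the lincRNA signal of the IgM libraries, as measured in poly(A) RNA. The 88 members took 0.302% ± 0.0435 of all FPKM in an IgM library and 0.144% ± 0.0289 in an IgG1 library (SD, n = 5 per group), with the lowest IgM library at 0.240% and the highest IgG1 library at 0.187%. Malat1 was 57.5% to 67.1% of the members' sum in IgM and 17.7% to 28.7% in IgG1 libraries. Without Malat1 the share was 0.106% ± 0.00789 in IgM and 0.112% ± 0.0183 in IgG1 libraries, with overlapping groups. That order was not stable: with immunoglobulin genes left out of the total the share without Malat1 was 0.373% ± 0.0129 against 0.355% ± 0.0280, and with 3 genes of the ribosomal DNA locus left out of the members it was 0.0558% ± 0.00554 against 0.0440% ± 0.00721.

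**Figure D4:**
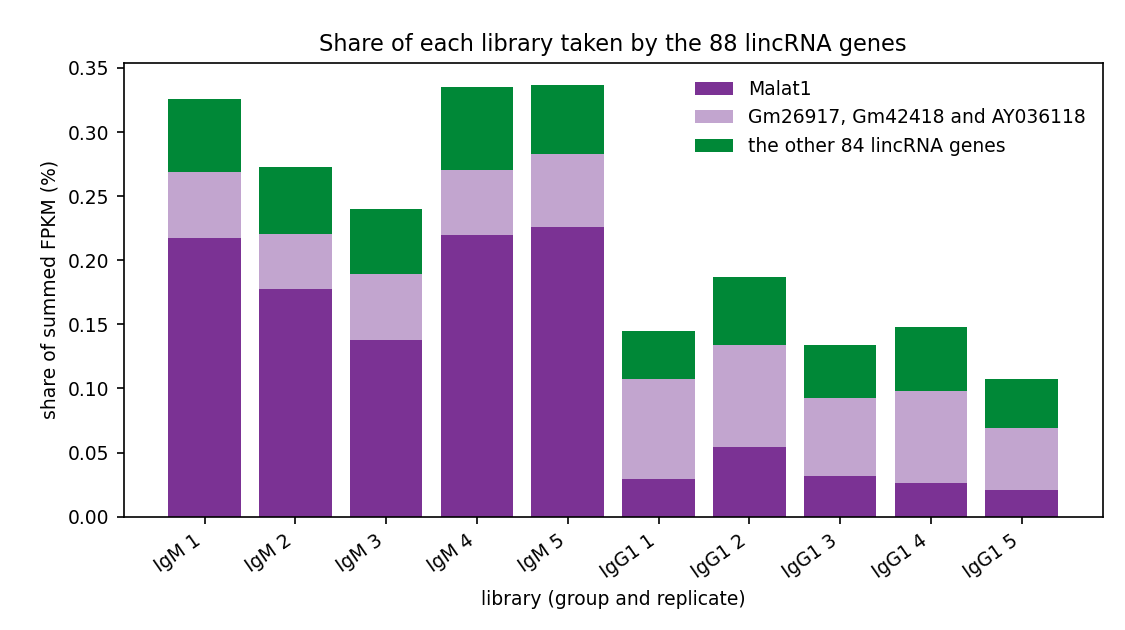
Share of summed FPKM, in %, taken in each library by Malat1, by 3 genes at the ribosomal DNA locus and by the other 84 lincRNA genes. The purple Malat1 part is tall in the IgM bars and short in the IgG1 bars, and the parts above it are of similar height in both groups.

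Transcripts of paraspeckle proteins moved in both directions. Of 20 listed paraspeckle proteins, all tested, 5 were higher and 7 lower in IgM libraries, with a median log2 difference of -0.13. Hnrnph3, an RNA-binding protein needed for paraspeckles, was at 26.8 ± 2.87 against 10.7 ± 1.88 FPKM (SD, n = 5 per group, log2 difference 1.26, adjusted p = 8.78e-07). Hnrnpa1 was at 92.4 ± 6.91 against 135 ± 9.79 FPKM (adjusted p = 8.61e-06, log2 difference -0.54), and Smarca4, a chromatin remodelling ATPase, at 18.1 ± 2.38 against 30.2 ± 2.86 FPKM (log2 difference -0.71, adjusted p = 8.87e-05).

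Of 29 tested genes of the nuclear RNA decay and 3′ end list, 4 were higher and 8 lower in IgM libraries, with a median log2 difference of -0.15. That is 41.4% called, near the 38.3% of all genes tested. The genes named next are examples from that list of factors that trim or degrade nuclear noncoding RNA. Zfc3h1, a scaffold that brings polyadenylated nuclear RNA to the exosome, was at 13.8 ± 3.44 against 4.33 ± 1.47 FPKM (adjusted p = 1.3e-05, log2 difference 1.48), and Rbm7, an adaptor for short-lived nuclear RNA, at 117 ± 6.87 against 68.5 ± 4.96 FPKM (log2 difference 0.76). The exosome subunit Exosc8 was at 30.6 ± 3.28 against 47.8 ± 4.76 FPKM (adjusted p = 6.35e-05, log2 difference -0.63). Elac2, the nuclease that trims tRNA ends, was at 7.11 ± 1.14 against 13.5 ± 1.42 FPKM (adjusted p = 0.000164, log2 difference -0.84).

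At the X inactivation centre, Ftx was high and Xist was near 0. Ftx (chromosome X, 103560907 to 103623790, minus strand), an activator of Xist in early development and the host of miR-374b and miR-421, was at 19.6, 25.1, 17.7, 17.7 and 23.2 FPKM in IgM replicates. In IgG1 replicates it was at 6.65, 9.69, 8.09, 7.02 and 6.13 FPKM. Every IgM library lay above every IgG1 library (2.75-fold in the means, log2 difference 1.35, SE 0.15, adjusted p = 1.43e-06). Jpx, which lies toward Xist, also acts on it and overlaps the end of Ftx in the annotation, was at 2.35 ± 0.372 against 1.95 ± 1.59 FPKM with overlapping groups (SD, n = 5 per group, log2 difference 0.33, adjusted p = 0.396). Xist, which coats the inactive X chromosome of female cells, was listed at 0.162 FPKM in 1 IgM library and at 0 in the other 9, and so is not a member.

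Hosts of small nucleolar RNAs (snoRNAs) carry in their introns the guides that direct chemical marks onto ribosomal RNA, and many of their spliced transcripts are short-lived in translating cells. Small Cajal body RNAs (scaRNAs) are a separate annotated type and were counted with the snoRNAs here. Of the 6 members that contain either type, 3 were higher in IgM libraries and 0 lower. Among all genes tested, 20.2% were higher and 18.1% lower. In Snhg20 and 2900076A07Rik the small RNA is typed scaRNA and not snoRNA. Snhg20 (chromosome 11, 117076008 to 117078955, plus strand) was at 23.1, 16.1, 17.9, 20.2 and 14.8 FPKM in the IgM and 10.9, 5.57, 6.79, 10.0 and 12.3 FPKM in the IgG1 replicates. These groups did not overlap (log2 difference 0.97, adjusted p = 0.000497). 2900076A07Rik, whose small RNA Mir1839 is annotated both as a scaRNA and as a microRNA, was at 11.3 ± 2.52 against 4.75 ± 1.53 FPKM, also without overlap (SD, n = 5 per group, log2 difference 1.12, adjusted p = 0.000248).

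The third, 2700038G22Rik, host of Snord93, was at 6.03 ± 2.61 against 2.98 ± 1.30 FPKM (SD, n = 5 per group, log2 difference 0.79, adjusted p = 0.0351). Its call ended when any library but IgM replicate 4, IgM replicate 5 or IgG1 replicate 3 was left out (adjusted p = 0.054 to 0.0956), and also under quantile normalization (adjusted p = 0.117), without a filter (adjusted p = 0.184), with eBayes without trend or robust settings (adjusted p = 0.0698) and with length and GC trends removed (adjusted p = 0.0657). Snhg12, host of 5 annotated snoRNAs, was at 3.62 ± 1.33 against 2.12 ± 0.737 FPKM (adjusted p = 0.0738), and passed without IgM replicate 5 (adjusted p = 0.0392) or IgG1 replicate 5 (adjusted p = 0.0478). Snhg6, host of Snord87, was at 19.5 ± 3.64 against 23.1 ± 3.99 FPKM (adjusted p = 0.209, log2 difference -0.24), and passed as lower in IgM with length and GC trends removed (log2 difference -0.48, adjusted p = 0.00738). Epb41l4aos was at 4.67 ± 2.60 against 4.45 ± 1.17 FPKM (adjusted p = 0.951).

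In the wider list of snoRNA hosts, which includes other gene types, 5 of 13 tested genes were higher and 0 lower, which is 38.5% called beside 38.3% of all genes tested. Gas5, typed processed_transcript and named for its rise in growth-arrested cells, was at 126 ± 7.41 against 51.5 ± 5.90 FPKM (SD, n = 5 per group, log2 difference 1.28, adjusted p = 3.11e-09). Snhg5 was at 30.3 ± 4.31 against 10.7 ± 2.78 FPKM (adjusted p = 8.76e-07, log2 difference 1.43). Snhg1, Snhg3 and Snhg8, of the same kind, did not pass, with log2 differences of 0.16, 0.08 and -0.01.

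Of the 4 members that contain a microRNA, Ftx, Snhg20 and 2900076A07Rik were higher in IgM libraries, as given above, beside 20.2% of all genes tested. The fourth, Mir142hg (chromosome 11, 87755577 to 87757270, plus strand), is the host of miR-142, which is abundant throughout the blood lineages. Mir142hg was at 7.44, 1.61, 0, 7.41 and 2.68 FPKM in the IgM and 0, 0.394, 0.812, 0 and 2.14 FPKM in the IgG1 replicates. IgM replicates 2 and 3 fell within the IgG1 range, and the gene did not pass (log2 difference 1.29, adjusted p = 0.117). Without IgM replicate 3 it passed, at a log2 difference of 1.76 (adjusted p = 0.00439). Among hosts of other gene types, Dleu2, the host of miR-15a and miR-16-1, was at 18.4 ± 2.85 against 6.85 ± 2.61 FPKM (SD, n = 5 per group, log2 difference 1.37, adjusted p = 4.97e-05).

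Of the 5 members in the list of immune and growth linked RNAs, Lockd passed, as lower in IgM cells, and the other 4 did not. Gm14005, named Morrbid in RefSeq (chromosome 2, 128178319 to 128502765, minus strand), is known in myeloid cells to hold down Bcl2l11, the gene of the death factor Bim, which lies 15771 bases away. It was at 54.6, 45.4, 41.5, 48.9 and 30.3 FPKM in the IgM and 38.3, 47.1, 58.1, 57.3 and 48.5 FPKM in the IgG1 replicates. The groups overlapped and the difference did not pass (log2 difference -0.18, SE 0.15, adjusted p = 0.348). Bcl2l11 itself was at 160.2 ± 13.9 FPKM in the IgM and 29.4 ± 2.01 FPKM in the IgG1 libraries (SD, n = 5 per group, log2 difference 2.41, adjusted p = 2.91e-13).

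Lockd (chromosome 6, 134929092 to 134956798, plus strand) is a lincRNA 3578 bases downstream of the cell cycle inhibitor gene Cdkn1b, and its promoter is known to act as an enhancer of that gene. It was at 33.7, 40.9, 39.7, 45.6 and 40.7 FPKM in the IgM and 44.0, 47.7, 58.5, 54.2 and 44.2 FPKM in the IgG1 replicates. The IgG1 libraries lay higher with overlap at IgM replicate 4 (log2 difference -0.30, SE 0.10, adjusted p = 0.0263). The call ended without IgM replicate 1, IgG1 replicate 3 or IgG1 replicate 4 (adjusted p = 0.0667 to 0.0787), without a filter (adjusted p = 0.115) and with eBayes without trend or robust settings (adjusted p = 0.0563). Cdkn1b was listed at 1.23 against 0.752 FPKM, under the limit for testing.

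Pvt1, which shares its region with the growth regulator Myc, was at 2.23 ± 0.510 against 2.31 ± 0.903 FPKM (SD, n = 5 per group, SE of the log2 difference 0.23, adjusted p = 0.993). Myc was at 10.5 against 18 FPKM (adjusted p = 0.00115, log2 difference -0.74). AW112010, an interferon-responsive immune lincRNA, was at 9.41 ± 3.97 against 6.97 ± 2.87 FPKM (adjusted p = 0.354, log2 difference 0.38). Gm28875 was at 2.80 ± 1.19 against 2.03 ± 1.94 FPKM (adjusted p = 0.316). Of the list of immune and growth linked RNAs, 6 were tested, of which 1 was higher, the antisense gene Gm26740, and 1 lower, Lockd. That is 33.3% called, near the 38.3% of all genes tested. Gm26740 was at 1.99 against 0.544 FPKM, so that its IgM level alone carried it over the limit.

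The other 2 lower members were Gm10076 and 1810058I24Rik. Gm10076, a single-exon gene of 384 bases, was at 34.9, 22.5, 30.9, 31.7 and 30.6 FPKM in the IgM and 51.9, 39.7, 50.3, 47.7 and 34.3 FPKM in the IgG1 replicates. Only IgG1 replicate 5 fell within the IgM range (log2 difference -0.55, SE 0.13, adjusted p = 0.00241). 1810058I24Rik, named here after its values were seen, was at 27.1 ± 4.40 against 34.2 ± 4.68 FPKM (SD, n = 5 per group, log2 difference -0.33, adjusted p = 0.0409). That call ended in 6 of 10 fits without 1 library, namely IgM replicate 2, 3 or 4 or IgG1 replicate 2, 3 or 5 (adjusted p = 0.0648 to 0.121), and also with a common total without immunoglobulin genes (adjusted p = 0.0596), with the replicate block (adjusted p = 0.0538), without a filter (adjusted p = 0.162) and with eBayes without trend or robust settings (adjusted p = 0.0719).

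Several higher members carry no function in their names. 4833407H14Rik (chromosome 19, 53460622 to 53462723, plus strand) was at 16.1, 17.8, 20.4, 14 and 16.3 FPKM in the IgM and 5.17, 5.65, 4.52, 3.51 and 5.07 FPKM in the IgG1 replicates. All IgM libraries were above all IgG1 libraries by a wide margin (3.54-fold in the means, log2 difference 1.63, SE 0.15, adjusted p = 2.02e-07). AI480526 (chromosome 5, 123133723 to 123141666, minus strand) was at 7.00, 5.50, 3.00, 4.95 and 5.09 FPKM in the IgM and 0.139, 0.476, 0.654, 0.481 and 1.22 FPKM in the IgG1 replicates. These groups were also apart (8.59-fold in the means, log2 difference 1.94, SE 0.24, adjusted p = 4.63e-06).

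Gm5547 (chromosome 3, 105815540 to 105817357, plus strand) was the third most abundant member and had a small but even difference. It was at 283, 269.5, 268, 307 and 277 FPKM in the IgM and 175, 199.8, 200.1, 196 and 221 FPKM in the IgG1 replicates. No library crossed into the other group (1.42-fold in the means, log2 difference 0.50, SE 0.06, adjusted p = 4.85e-06). 2310001H17Rik was at 46.6 ± 5.70 against 31.8 ± 2.23 FPKM, again with separate groups (SD, n = 5 per group, log2 difference 0.53, adjusted p = 0.00033). Removing length and GC trends ended its call (log2 difference 0.22, adjusted p = 0.0947).

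Separate groups were also seen among members with a low level in IgG1 cells. The 4 that follow, like AI480526, reached the limit of 1 FPKM through the IgM libraries alone, so a difference was built into their selection and their tests are given as description. Gm44734, of 237 exonic bases, was at 0.830, 4.63, 2.75, 3.82 and 5.39 FPKM in IgM, at 0.570 FPKM in the IgG1 replicate 2 and at 0 in the other IgG1 replicates (log2 difference 1.91, adjusted p = 0.000106). Gm4349 was at 2.11 ± 0.853 against 0.252 ± 0.0603 FPKM (SD, n = 5 per group, log2 difference 1.27, adjusted p = 0.000745). Gm20939 was at 3.26 ± 0.872 against 0.832 ± 0.595 FPKM (adjusted p = 0.000776, log2 difference 1.25). Gm13166 was at 3.47, 0.653, 3.95, 0.791 and 0.988 FPKM in the IgM and above 0 in IgG1 replicate 4 alone, at 0.539 FPKM (log2 difference 1.28, adjusted p = 0.00605).

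The remaining higher members were named after their values were seen. Among those with separate groups and at least 10 FPKM in IgM cells, 2610035D17Rik was at 14 ± 2.71 against 5.92 ± 1.43 FPKM (SD, n = 5 per group, log2 difference 1.12, adjusted p = 7.24e-05). 1300002E11Rik was at 26.6 ± 4.98 against 12.1 ± 3.24 FPKM (adjusted p = 9.72e-05, log2 difference 1.10) and AU020206 at 43.0 ± 9.01 against 23.8 ± 5.67 FPKM (log2 difference 0.84, adjusted p = 0.00213). Over all 35 higher members the ratio of the group means was at least 2 in 28, and the smallest log2 difference was the 0.50 of Gm5547. The groups did not overlap in 25 of the 35. Among all genes tested, 2001 were higher, and 1316 had every IgM library above every IgG1 library.

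The weakest calls ended without single libraries and under other choices of processing, and these members too were named after their values were seen. 1110019D14Rik (log2 difference 0.61, adjusted p = 0.0338) lost its call without IgM replicate 1, 2 or 5 or IgG1 replicate 2 or 5 (adjusted p = 0.057 to 0.096). Gm37933 (0.83, adjusted p = 0.0378) lost it without IgM replicate 2, 3 or 4 or IgG1 replicate 3, 4 or 5 (adjusted p = 0.0654 to 0.101), and Gm43020 (1.17, adjusted p = 0.0349) without any library but IgM replicate 4, IgG1 replicate 3 or IgG1 replicate 5 (adjusted p = 0.0506 to 0.0864). 4930428O21Rik (0.85, adjusted p = 0.0194) lost it without IgM or IgG1 replicate 5 (adjusted p = 0.0501 and 0.0509). Gm17300 (0.75, adjusted p = 0.0228) lost it without IgM replicate 1 or IgG1 replicate 3 (adjusted p = 0.0605 and 0.0517), and Gm26510 (0.78, adjusted p = 0.018) without IgM replicate 1 or 5 or IgG1 replicate 1 (adjusted p = 0.0505 to 0.0545). Quantile normalization ended the call of all 6 (adjusted p = 0.0584 to 0.178), and testing without a filter that of all but Gm17300 (adjusted p = 0.112 to 0.152). Removing length and GC trends ended it for 1110019D14Rik, Gm37933, Gm43020 and Gm17300 (adjusted p = 0.0518 to 0.214), plain eBayes for Gm37933 and Gm43020 (adjusted p = 0.0513 and 0.0539), the replicate block for 1110019D14Rik (adjusted p = 0.0591) and a pseudocount of 0.1 for Gm43020 (adjusted p = 0.138). With 2900097C17Rik and 2700038G22Rik these are the 8 higher members that did not hold in every fit without 1 library, and the other 27 did.

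Position beside protein-coding genes varied. The median distance between the start of a member and the nearest protein-coding start was 24713 bases. That distance was at most 5000 bases in 23 members, 13 of which start within 1000 bases of a gene that runs the other way, and over 50000 bases in 30. The neighbour passed the limit for testing for 53 members. Over these 53 pairs the log2 differences of lincRNA and neighbour had a Pearson correlation of 0.25 and a Spearman correlation of 0.29, as a description, since all pairs come from the same 10 libraries.

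Of the 26 higher members with a tested neighbour, the neighbour was higher in IgM libraries for 12, lower for 4 and not called for 10. Of the 27 members not called, it was higher for 8, lower for 4 and not called for 15. Among all genes tested, 20.2% were higher and 18.1% lower, and whether the neighbours differ from that was not tested. Trp53inp1, a stress-induced gene of autophagy and growth arrest, was at 545 against 163 FPKM (adjusted p = 2.91e-13, log2 difference 1.73), and Gm11827, whose start lies 33626 bases away, at 8.41 ± 1.53 against 2.82 ± 1.29 FPKM (SD, n = 5 per group, log2 difference 1.36, adjusted p = 0.000155). Dusp5, a phosphatase that limits ERK signalling, was at 14.7 against 4.36 FPKM (log2 difference 1.56), with 4833407H14Rik 68487 bases from it. Chd2, a chromatin remodeller 67118 bases from Gm44734, had a log2 difference of 1.24.

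The same direction was seen in further pairs, whose neighbours were named after their values were seen. Gm19585, at 7.66 ± 2.42 against 2.69 ± 1.29 FPKM (SD, n = 5 per group, log2 difference 1.24, adjusted p = 0.000506), lies near Satb1, an organiser of lymphocyte chromatin (log2 difference 1.15). Gm15326, at 6.68 ± 0.779 against 2.53 ± 1.43 FPKM (log2 difference 1.21, adjusted p = 0.000754), lies near the kinase gene Map3k1 (0.90). 2310001H17Rik lies 36711 bases from Cd69, an early activation receptor that keeps lymphocytes in tissue, which was at 10.2 against 3.51 FPKM (adjusted p = 9.6e-05, log2 difference 1.30). 5031425E22Rik starts 172 bases from Kmt2e, running the other way, and the 2 genes had log2 differences of 0.61 (adjusted p = 0.0117) and 0.98 (adjusted p = 6.59e-06). Without a filter the 5031425E22Rik call ended (adjusted p = 0.0979).

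Opposite directions were seen in 4 pairs. Rcc1, a chromatin-bound exchange factor, was lower in IgM libraries (log2 difference -1.11, adjusted p = 0.000255) while Gm17300, within its span, was higher. The same held for Tomm7, a mitochondrial import protein, beside 2700038G22Rik (-0.57 for Tomm7), for the ribosomal protein gene Rps3a1, whose start lies 55 bases from that of Gm37933 (-0.47 for Rps3a1), and for Myl12b beside Gm26510 (-0.27 for Myl12b). The kit does not keep strand, so reads of a lincRNA that overlaps another gene cannot be told apart from those of that gene. Counting every annotated gene, small RNAs and pseudogenes included, 48 members overlap the span of another gene, of which 22 were higher and 1 lower. Over all 88 members 39.8% were higher and 3.41% lower, and over all genes tested 20.2% and 18.1%. In 13 members that gene is protein-coding, of which 5 were higher and 0 lower: Gm17300, Gm26860, Gm16973, Ino80dos and 1300002E11Rik. Gm30211, named after its values were seen, spans the immunoglobulin kappa constant gene Igkc, whose product plasma cells make in bulk, and was at 2.68 ± 0.856 against 1.15 ± 0.222 FPKM (SD, n = 5 per group, log2 difference 0.75, adjusted p = 0.0112). It did not pass after quantile normalization (adjusted p = 0.0671) or without the length and GC trends (adjusted p = 0.0756). Ftx overlaps Jpx, and 4833407H14Rik overlaps the lincRNA gene Mirt1.

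**Figure D5:**
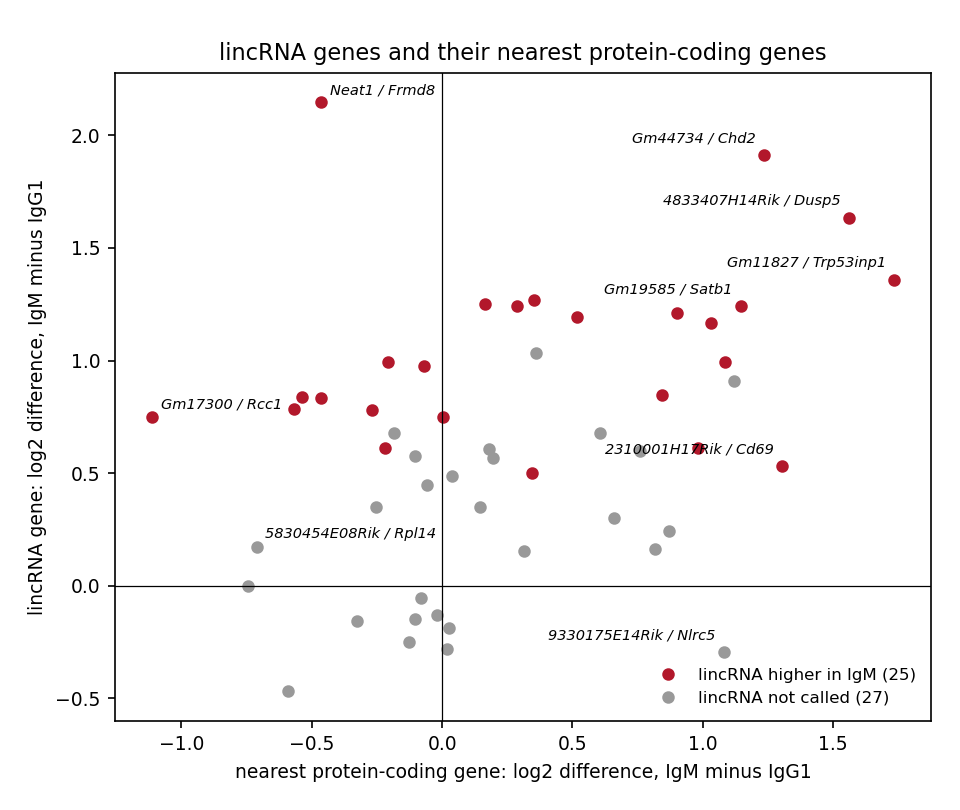
Log2 difference (IgM minus IgG1) of 52 lincRNA genes (vertical axis) and of the protein-coding gene with the nearest start (horizontal axis), with some pairs named as lincRNA / neighbour and the Malat1 pair not drawn. Many points lie to the left and right of the vertical line alike, few are at the lower right, and Neat1 stands high with a neighbour below 0.

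The second most abundant member, AY036118, belongs to a ribosomal DNA locus on chromosome 17, where the annotation types 3 members as lincRNA. AY036118 (39847113 to 39848035, minus strand) and Gm42418 (39846958 to 39848788, plus strand) lie wholly inside the ribosomal RNA gene CT010467.1, and Gm26917 (39843013 to 39846341, plus strand) lies beside it. AY036118 was at 779, 655, 869, 677 and 855 FPKM in the IgM and 1179, 915, 931, 945 and 800.2 FPKM in the IgG1 replicates. Most IgG1 libraries lay higher but the groups overlapped, and the difference did not pass (log2 difference -0.31, SE 0.12, adjusted p = 0.0632). It passed without IgM replicate 3 (adjusted p = 0.0499), without IgG1 replicate 5 (adjusted p = 0.0283) and under quantile normalization (adjusted p = 0.0131).

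Gm26917 was at 97.2 ± 7.56 against 113 ± 15.2 FPKM (SD, n = 5 per group, log2 difference -0.21, adjusted p = 0.0777) and passed without IgG1 replicate 4 (log2 difference -0.30, adjusted p = 0.00464) and with median-ratio scaling (adjusted p = 0.0402). Gm42418, named after its values were seen, was at 26.0 ± 4.49 against 27.4 ± 5.30 FPKM (adjusted p = 0.72). CT010467.1 itself was lower in IgM libraries, at 657 ± 32.3 against 875 ± 94.9 FPKM (log2 difference -0.41, adjusted p = 4.81e-05). Reads from rRNA can be counted to any of these genes, so their values are uncertain as lincRNA levels.

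Values of 2 members came from 1 library each. Gm26940, a model of 105 bases, was listed at 34.9 FPKM in IgM replicate 4 and at 0 in the other 9 libraries. Gm23925, a model of 132 bases, was at 10.6 FPKM in IgM replicate 3 and at 0 elsewhere, and a snoRNA entry of the same name held identical values. For models this short a few fragments give a high FPKM. A further 13 members were listed at 0 in at least 1 library, and 73 were above 0 in all 10.

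The spread between replicates was wide for low members. The median coefficient of variation was 31.8% in IgM and 39.2% in IgG1 libraries over all members, and 17.3% and 23.8% over the 29 members at 5 FPKM or more. 1700020I14Rik, picked after its values were seen, is an abundant member that did not pass, at 28.7 ± 2.79 against 30.0 ± 4.43 FPKM (SD, n = 5 per group, SE of the log2 difference 0.11, adjusted p = 0.721). With length and GC trends removed it passed as lower in IgM (log2 difference -0.50, adjusted p = 0.00131).

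Library measures moved with the groups as well. More genes were listed above 0 in IgM libraries, 15121 to 15800 against 13286 to 13961, and more lincRNA genes, 411 to 501 against 272 to 345, which is 12.9% ± 1.07 against 8.43% ± 0.834 of the listed lincRNA genes (SD, n = 5 per group). Estimated depth did not run that way, at 26700000 to 31000000 fragments in IgM and 26200000 to 37900000 in IgG1 libraries. That estimate was searched only within a range fixed in advance and is rough. Plasma cell markers were present in both groups, with 9 of 10 higher and 1 lower in IgM libraries. Among all genes tested, 20.2% were higher and 18.1% lower. The median log2 difference of the 10 markers was 0.494, and some of these differences were small, with adjusted p just under the threshold. All 3 tested B cell markers were higher in IgM libraries, and Ms4a1, one of them, was at 53.7 to 76.4 FPKM in the IgM and 35.4 to 51.2 FPKM in the IgG1 libraries (log2 difference 0.54, adjusted p = 0.000702), without overlap. Pax5 had means of 0.0704 against 0.0600 FPKM. Summed T cell markers were 2.87 to 6.93 against 2.43 to 4.54 FPKM, with 1 of 2 tested genes lower, and myeloid markers 3.21 to 6.88 against 4.44 to 8.20 FPKM, with 0 of 3 called and S100a8 and S100a9 at 0 in all. The NK cell, dendritic cell, erythroid, platelet and stromal lists each summed to under 8 FPKM in every library. Only 1 gene each of the NK cell, dendritic cell and stromal lists reached the limit for testing, none of the 3 passed, and 0 of the erythroid and platelet lists were tested, with Gzma, Ncr1, Itgax, Gp9, Col1a1, Col1a2 and Pdgfrb at 0 in all. The part of these measures in the lincRNA differences was not tested. In bulk samples fewer cells of a type and less RNA per cell cannot be told apart.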

How the data were processed

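Poly(A) RNA of 5 IgM and 5 IgG1 plasma cell libraries was measured by RNA-seq and grouped by sample titles. Extraction used the miRNeasy Micro kit, and full-length cDNA libraries without strand came from Takara's SMART-Seq HT LP reagents for mRNA, per the labels' protocols. HISAT2 2.1.0, Cufflinks 2.2.1 and Cuffdiff were used with build GRCm38, per the submitters' processing notes. Settings and annotation: not given in the sources used here. The authors deposited FPKM values, per the file headers, in 1 file per library keyed by Ensembl identifier. FPKM is a share of the library scaled by length, keeps no counts and so gives no counting interval, and an exact 0 can be a failed estimate.

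Of 47719 identifiers 47305 matched GENCODE M21, which gave gene types, symbols and 1-based positions. Depth was estimated from single-transcript genes by treating each FPKM as that of 1 fragment, with fragments of 200 bases assumed. The most frequent value within a range fixed in advance was taken, so the estimate could not leave that range. The 9900 genes whose mean reached 1 FPKM were tested on log2 of FPKM plus 1 with limma 3.58.1 in R 4.3.3 (trend and robust, group only, two-sided, Benjamini-Hochberg over all 9900 genes, threshold 0.05). Differences are IgM minus IgG1 on this log2 scale, so those of low genes come out too small. The test was checked on simulated data. The labels give no batch.

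The members and gene lists were chosen with earlier results of these data known. Named members were the 8 of highest mean, up to 10 by size in each direction among called genes with separate groups, those in a list or holding a snoRNA or microRNA, and the 3 at each side of the limit, which gave 31. A further 25 were named outside that rule. A few neighbouring or marker genes, and the B cell marker sum, are not reported here. Alternatives were 3 scalings, plain eBayes, pseudocounts of 5 and 0.1, a limit of 5 FPKM or none, the replicate number as a block, fits without each library, and, added after seeing the data, removal of length and GC trends (natural splines of 4 degrees of freedom, values for 99.8% of genes). Python 3.11.15, pandas 2.3.3, numpy 2.4.6 and matplotlib 3.10.9 were used.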

Additional observations from a re-analysis of the deposited data

Results flagged for a closer look

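A check for 1 library apart from the other 4 was run on 118 groups of 5 values. Chance flags about 1 in 20 groups of normally distributed values. In 8 of the 118 groups, 1 library stood apart by most of the group's range. In the IgM group these were IgM replicate 4 for Gm26940, at 34.9 FPKM with the others at 0, IgM replicate 3 for Gm23925, at 10.6 FPKM with the others at 0, and IgM replicate 4 for Gm43020, which was low at 1.44 FPKM. In the IgG1 group they were IgG1 replicate 2 for Gm44734, at 0.57 FPKM with the others at 0, IgG1 replicate 4 for Gm13166, at 0.539 FPKM with the others at 0, IgG1 replicate 1 for 4930562F07Rik, at 2.32 FPKM, and IgG1 replicate 3 for Gm19585, at 4.93 FPKM, and for 1700020I14Rik, at 37.6 FPKM. No library accounts for more than 2 of the 8. The rate of 1 in 20 does not apply to groups with all values but 1 at 0, as for Gm26940, Gm23925, Gm44734 and Gm13166.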

How the results depend on the processing

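Over 20 settings (9 other choices, the length and GC removal, and 10 fits without 1 library), 22 of the 35 higher members were called every time they were tested, 13 lost the call at least once and 0 changed direction, while 15 members not called passed at least once. The count of higher members fell from 35 to 26 under quantile normalization, to 26 without a filter and to 27 with length and GC trends removed. It was 15 with a mean of at least 5 FPKM, where fewer genes were tested, and 94 over all long noncoding gene types. Without 1 library it was 31 to 34. The count of lower members was 5 under quantile normalization, 1 without a filter, 1 with plain eBayes and 6 with length and GC trends removed, and 2 to 3 without 1 library. Separate groups numbered 12 with a mean of at least 5 FPKM. The median log2 difference was 0.354 under quantile normalization, which also moved the median of all genes from 0.05 to -0.06, 0.798 and 0.224 with pseudocounts of 0.1 and 5, 0.415 with length and GC trends removed, and 0.480 to 0.565 without 1 library. The log2 ratio of the summed share went from 1.07 to -0.069 without Malat1, and that share was higher in IgM once immunoglobulin genes left the total (0.373% against 0.355%).

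Signs near 0 turned for Epb41l4aos (0.004 with pseudocount 5, -0.249 to 0.158 without 1 library), Pvt1 (0.012 with a common total, 0.018 with pseudocount 0.1, -0.156 to 0.119 without 1 library), Gm42418 (0.101 with length and GC trends removed, -0.169 to 0.009 without 1 library), and for 1700020I14Rik (-0.101 to 0.026 without 1 library), and the cause was not tested. With the replicate block 35 members were higher and 2 lower, with 25 separate. Same-numbered libraries correlated at -0.0357 to 0.0966 in their deviations. IgM 1, 3 and 4 correlated best with their own number, and IgM 2 and 5 did not. These values do not settle whether same-numbered libraries are pairs, and the main fit did not treat them as pairs. FPKM without counts limits what can be said of members near 1 FPKM.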
